A study of Mus musculus with 6 samples.

Results

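The protein-coding histone genes of the mouse CAD line were compared between proliferating cells and cells differentiated with dexamethasone. They were chosen by symbol alone, as protein-coding genes of Ensembl release 96 whose symbols begin with Hist1h to Hist4h, H2af, H3f3 or H1f. The rule gave 82 genes of the 55536 in the count tables. No expression value entered it, but it was set with earlier results of these data known. Of these, 67 have Hist symbols, with 54 on chromosome 13, 10 on chromosome 3, 2 on chromosome 11 and 1 on chromosome 6. They are called replication-dependent here. The other 15 are called replication-independent variant genes. Both classes were given by symbol alone, not by the mRNA end or by behaviour in the cell cycle, so single members may differ from their class. By class, the replication-dependent genes comprised 6 for the linker histone H1, 18 for H2A, 18 for H2B, 12 for H3 and 13 for H4. A further 9 loci whose symbols match are not annotated as protein-coding and were not counted as members.

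CAD is a catecholaminergic line of the mouse central nervous system, of C57BL/6 x DBA/2 background, transformed with simian virus 40. All 6 mRNA libraries come from this line. The undifferentiated group (n = 3) grew in medium with 8% serum, and the differentiated group (n = 3) had 100 µM dexamethasone, a synthetic glucocorticoid, for 5 days in medium with 1% serum. Steroid and lower serum therefore differed together, and their effects cannot be told apart. The samples of a group are labelled independent, but separate cultures are not stated. The p-values therefore reflect only how far these samples differ, and that spread may be technical.

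Histones are the proteins around which DNA is wound, with H2A, H2B, H3 and H4 forming the core particle and H1 binding the linker DNA. The replication-dependent genes supply new chromatin in S phase, and they are present in many near-identical copies. Their mRNAs normally lack introns and a poly(A) tail, and end instead in a short stem-loop that binds the stem-loop binding protein, Slbp. Variant genes are transcribed through the cell cycle, some of them have introns, and their mRNAs carry a poly(A) tail.

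A stem-loop was found in most, not all, replication-dependent genes, and the tested members that have one are shown because this mRNA end is typical of the class. H2afx, a variant, is shown with them. In each sequence the paired stem is in capitals and the loop is in lower case, 5′ to 3′.
Hist1h1c: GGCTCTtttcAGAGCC
Hist3h2a: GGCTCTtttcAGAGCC
Hist3h2ba: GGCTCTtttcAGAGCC
Hist1h4i: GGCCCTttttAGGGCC
H2afx: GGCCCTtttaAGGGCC
On GRCm38 these lie at chr13:23739512-23739527 on the plus strand, chr11:58955172-58955187 plus, chr11:58949349-58949364 plus, chr13:22040966-22040981 minus and chr9:44335240-44335255 plus. The search was for a hairpin of 16 bases after the coding end, on the transcript strand, with a fully paired stem that begins with GG and a loop that begins with TT. It found a match in 43 of the 67 replication-dependent genes, at 21 to 58 bases after the coding end, and in 1 of the 9 tested variants, H2afx. The form of Hist1h1c, Hist3h2a and Hist3h2ba was the most frequent, in 25 of those 43 genes. No match was found in the tested genes Hist1h2bc and Hist2h2be, which are in the class by symbol. In 15 untested replication-dependent genes the annotated transcript ends at most 2 bases after the coding end. A stem-loop beyond that end could not be found, so a missing match there does not show that it is absent.

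The libraries held between 6411105 and 8757992 counted reads. At these totals 3 reads equal 0.343 to 0.468 CPM (reads of a gene relative to the library total) without further scaling. Values below are CPM after scaling with trimmed means (TMM), unless they are given per length. That is RPKM, which divides the scaled CPM by the exon length. Tests are edgeR's quasi-likelihood test with Benjamini-Hochberg adjustment over the 12664 genes that passed a filter on low counts, and a gene was called at an adjusted p under 0.05. Under this test 78.9% of all genes tested were called, 40.3% higher and 38.6% lower in dexamethasone, so a call alone does not set a histone gene apart. The median log2 fold change of all genes tested was 0.02. As a check of the labels, all 8 markers of cycling cells were called lower. Their summed level was 3609 to 3751 CPM in undifferentiated cells and 215 to 238 CPM in dexamethasone-treated cells. All 8 markers of neurons and catecholamine cells were tested, 5 higher and 3 lower, at a summed 1489 to 1557 and 1501 to 1542 CPM. Markers of fibroblasts summed to 10.1 to 13.7 and 18.3 to 20.3 CPM, those of astrocytes to 4.10 to 5.20 and 3.27 to 4.10 CPM, and those of oligodendrocytes to 2.97 to 4.22 and 2.53 to 4.25 CPM. Markers of endothelium and blood reached at most 1.85 CPM in sum and those of the germ line at most 1.44 CPM. No read fell on Mog, Mag, Ptprc, Hbb-bs, Prm1 or Tnp1.

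The 9 testable histone variant genes fell, and 4 of the 6 testable replication-dependent genes rose. Of the 15 variant genes 9 passed the filter, and 9 of 9 were called lower, against 38.6% of all genes tested. In each of the 9 the groups did not overlap, which held for 38.9% of all genes tested in that direction. Their median log2 fold change was -0.95. Of the 67 replication-dependent genes only 6 passed the filter. Of these 4 were called higher, against 40.3% of all genes, 1 was called lower and 1 was not called. Their median log2 fold change was 0.86, and this sign depends on the filter: over the 43 replication-dependent genes with any read the median was -0.96. In 22 of those 43 genes 1 group had no read, so their fitted values depend on the count that edgeR adds to each value. The members that passed are those with enough reads in at least 1 group, and they are not a sample of all 82. Hist3h2a, Hist2h2be and Hist1h4i reached the filter's level in all 3 libraries of only 1 group, so a difference between groups helped them to pass.

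**Figure D1:**
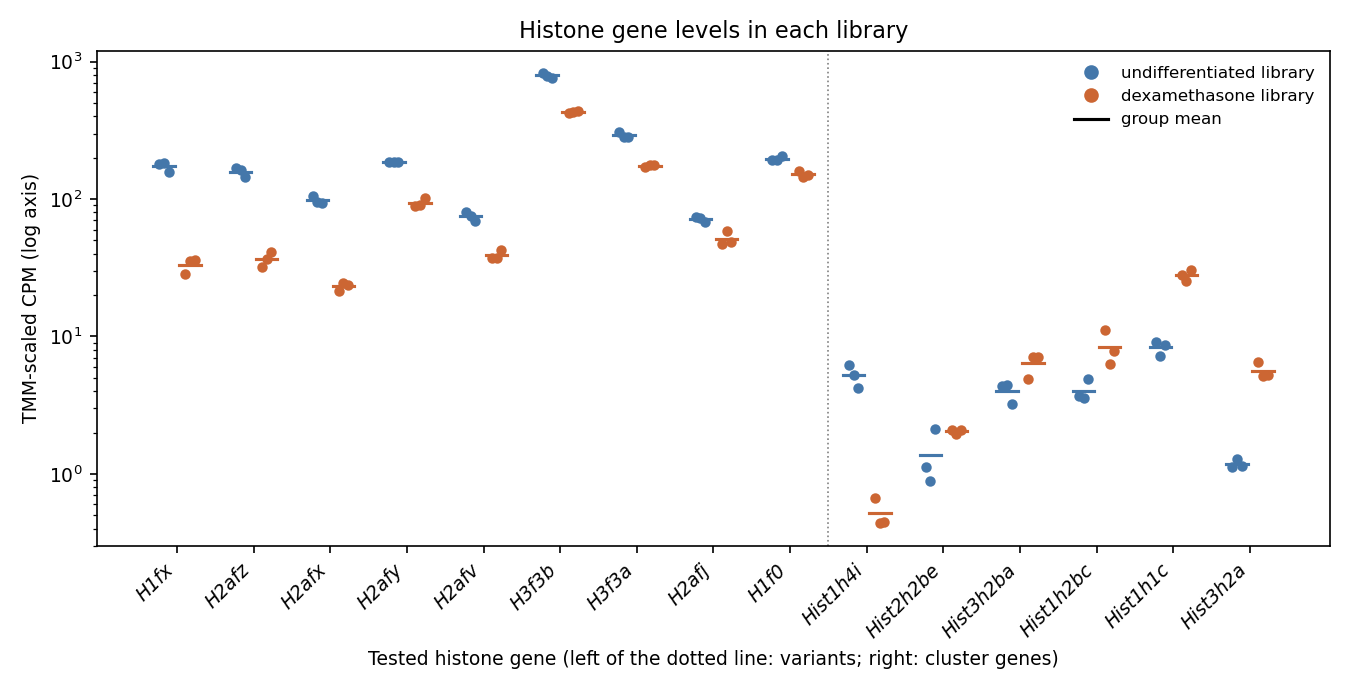
CPM of each tested histone gene in every library, on a log axis, with the undifferentiated and dexamethasone libraries as separate points and group means as lines. The 9 variants sit lower in all dexamethasone libraries, and of the 6 replication-dependent genes 4 sit higher, Hist1h4i sits lower and Hist2h2be overlaps.

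The linker histone variant H1fx changed most among the variants. H1fx encodes H1X, and it stood at 179.8, 182.9 and 156 CPM in undifferentiated replicates 1, 2 and 3 and at 28.7, 35.2 and 35.9 CPM in dexamethasone replicates 1, 2 and 3. Every undifferentiated library was far above every dexamethasone library. The mean went from 172.9 ± 14.6 to 33.3 ± 3.98 CPM (SD, n = 3 each). On the log2 scale the difference was -2.39 ± 0.08 (SE), with an edgeR adjusted p of 1.47e-20. H1fx is at chr6:87980421-87981637 on the minus strand (ENSMUSG00000044927). An antisense gene, Gm5577, lies over it and held 103 and 27 reads in the groups; the counting used strand, per the file headers.

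H1f0, which encodes the linker variant H1.0 known to build up in many non-dividing cells, changed least. It stood at 193.8, 193.5 and 204 CPM in the undifferentiated libraries and at 160.1, 144 and 149 CPM in the dexamethasone libraries. The groups did not overlap, but the fall was small beside that of H1fx, at -0.38 ± 0.05 (SE) in log2 fold change with an edgeR adjusted p of 3.96e-07. H1f0 is a gene of chr15:79028450-79030504 on the plus strand (ENSMUSG00000096210). H1foo, the oocyte linker histone, had 1 and 2 reads in the groups, and H1fnt, the spermatid form, had none.

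Among H2A variants the pair that encodes H2A.Z fell by unequal amounts. H2A.Z replaces H2A around transcription starts, and its main mouse genes H2afz and H2afv encode nearly identical proteins. H2afz stood at 167.5, 163 and 144 CPM in undifferentiated libraries and at 31.9, 36.4 and 41 CPM in dexamethasone libraries. H2afv stood at 80.8, 75.6 and 69 CPM and at 37.2, 37.4 and 42.7 CPM. Both genes were lower in every dexamethasone library, while H2afz was the higher of the pair in CPM in every undifferentiated library and the lower in 3 of 3 dexamethasone libraries. The log2 fold changes were -2.13 ± 0.08 (SE, edgeR adjusted p = 1.37e-19) for H2afz and -0.95 ± 0.08 (SE, edgeR adjusted p = 7.18e-12) for H2afv. Per exon length, H2afz made up 65.6%, 66.5% and 65.7% of the RPKM of the pair in undifferentiated libraries and 44.1%, 47.2% and 46.8% in dexamethasone libraries. The shares did not overlap, and this ratio does not depend on how libraries are scaled. An exact permutation test over libraries gave a two-sided p of 0.1, the smallest that 3 against 3 libraries allows. The exon lengths used were 1776 bases for H2afz and 1633 for H2afv, but the longest coding transcript of H2afz has 1069 bases. Which gene is the larger in dexamethasone libraries therefore depends on the length used. Of the 75-base stretches of H2afz 28.8% are shared with genes at other places, against 0 for H2afv, so reads of H2afz may be lost. H2afz lies at chr3:137864487-137866922 on the plus strand (ENSMUSG00000037894) and H2afv at chr11:6427229-6444443 on the minus strand (ENSMUSG00000041126).

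The promoters of this pair are shown because the genes for 1 protein type moved by different amounts. Each is the 250 bases before the transcription start (RefSeq, GRCm38.p6), with CCAAT or its complement ATTGG in capitals.
H2afz: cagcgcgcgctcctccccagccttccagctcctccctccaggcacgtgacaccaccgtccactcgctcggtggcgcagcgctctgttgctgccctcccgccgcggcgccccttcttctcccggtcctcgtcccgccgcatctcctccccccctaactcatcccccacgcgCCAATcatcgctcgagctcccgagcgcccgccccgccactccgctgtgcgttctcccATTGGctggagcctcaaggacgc
H2afv: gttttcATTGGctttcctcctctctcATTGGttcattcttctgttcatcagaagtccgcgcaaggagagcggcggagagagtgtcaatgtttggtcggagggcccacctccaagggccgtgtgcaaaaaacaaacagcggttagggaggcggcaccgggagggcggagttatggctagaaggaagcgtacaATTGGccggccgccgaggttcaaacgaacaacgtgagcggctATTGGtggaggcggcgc
The H2afz stretch is chr3:137864237-137864486 on the plus strand and the H2afv stretch is chr11:6444444-6444693 on the minus strand. Both hold CCAAT boxes, a motif bound by NF-Y, which 37.4% of all annotated promoters of 300 bases hold on either strand. A match is only a description of the letters.

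H2afx, whose product is phosphorylated beside DNA breaks, differs from the other tested variants in having a stem-loop as well as a long transcript end. It stood at 104.9, 95.8 and 93.2 CPM in undifferentiated libraries and at 21.6, 24.4 and 23.5 CPM in dexamethasone libraries. All dexamethasone libraries were lower, and H2afx fell nearly as far as H2afz, at -2.08 ± 0.08 (SE) in log2 fold change with an edgeR adjusted p of 2.9e-19. The annotated transcript runs 822 bases past the stem-loop. H2afx is at chr9:44334694-44336077 on the plus strand (ENSMUSG00000049932).

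H2afy encodes macroH2A1, a large H2A variant found in silent chromatin, and H2afj encodes H2A.J, known in human cells to build up in senescence. H2afy went from 186 ± 0.73 to 93.8 ± 6.37 CPM (SD, n = 3 each), which is -0.99 on the log2 scale (edgeR adjusted p = 4.33e-15). H2afj stood at 74.5, 73.4 and 68 CPM in undifferentiated libraries and at 47.3, 58.9 and 48.8 CPM in dexamethasone libraries. Its groups came closest to each other among the variants, in dexamethasone replicate 2, and its log2 fold change was -0.48 (edgeR adjusted p = 3.18e-06). No read fell on H2afy2, which encodes macroH2A2, or on the testis genes H2afb1, H2afb2 and H2afb3.

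H3f3a and H3f3b encode the same protein, H3.3, which is placed in chromatin outside S phase. H3f3b had the highest level of any member per length, 266.9 RPKM in undifferentiated and 145 RPKM in dexamethasone libraries. In CPM it stood at 824, 792 and 767 in undifferentiated libraries and at 424.5, 433 and 437 in dexamethasone libraries, with no overlap. H3f3a stood at 309.8, 283 and 283 CPM and at 170.2, 176 and 176 CPM, again with all dexamethasone libraries lower. The log2 fold changes were -0.88 ± 0.05 for H3f3b (SE, edgeR adjusted p = 1.25e-15) and -0.75 ± 0.05 for H3f3a (SE, edgeR adjusted p = 4.08e-13). In RPKM, H3f3b made up 76.2 ± 0.47% of the pair in undifferentiated and 74.5 ± 0.13% in dexamethasone libraries (SD, n = 3 each). The pair together went from 1086 ± 43.1 to 605.5 ± 9.64 CPM. H3f3a lies on chr1:180800832-180813943 and H3f3b on chr11:116021912-116027962, both on the minus strand.

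In sum the 9 tested and 6 other variants went from 2046 ± 75.8 to 1034 ± 22.3 CPM (SD, n = 3 each), 1.98-fold lower. A called fall with a log2 fold change of -1 or less was met by 3 of the 9, H1fx, H2afz and H2afx, and by 12.2% of all genes tested. These 3 were also past a log2 fold change of -2, which 3.41% of all genes tested were. The summed markers of cycling cells were 16.3-fold lower in the same libraries, and their part in the fall of histone variants was not tested. In bulk RNA, fewer cells with a transcript and less of it per cell cannot be told apart.

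**Figure D2:**
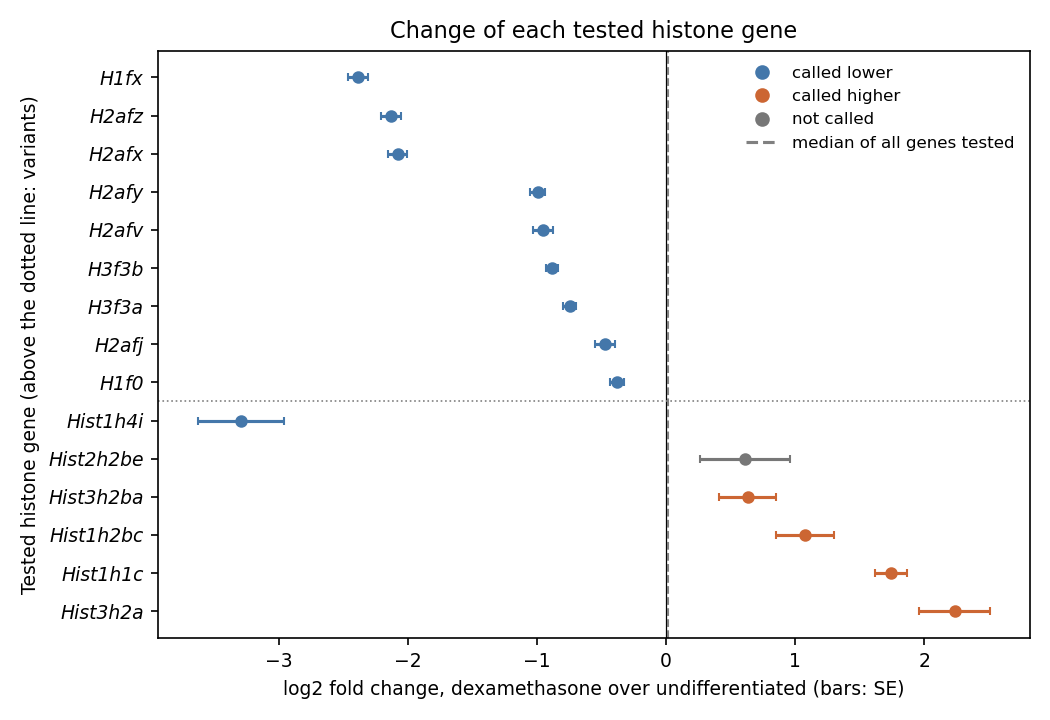
Log2 fold change, dexamethasone over undifferentiated, of each tested histone gene with its standard error, beside the median of all genes tested at 0.02. The 9 variants lie between -2.39 and -0.38 and 4 replication-dependent genes lie between 0.63 and 2.24.

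The make-up of the H2A variants and linker histones shifted with these unequal falls. Among the 5 tested H2A variants, by RPKM, H2afz went from 32.7 ± 0.80% to 19.8 ± 1.37% and H2afx from 26 ± 0.67% to 16.2 ± 0.41% (SD, n = 3 each). H2afj went from 14.4 ± 0.25% to 27.3 ± 2.72% of the same total, although its own level fell. The size of these shares and the order of RPKM depend on exon length, taken over all exons of a gene. For H2afy that is 6809 bases, against 2046 for its longest coding transcript. H2afy was the lowest of the 5 in RPKM but the highest in CPM, at 186.2 in undifferentiated and 93.8 in dexamethasone libraries. Among the linker genes H1fx, H1f0 and Hist1h1c, H1fx went from 58.3 ± 2.89% to 23 ± 2.90%, H1f0 from 39.5 ± 2.72% to 61.9 ± 2.91% and Hist1h1c from 2.2 ± 0.29% to 15.1 ± 1.00%. For each of these shares the groups did not overlap, and the exact permutation p was 0.1, two-sided, the smallest possible. The order of RPKM in undifferentiated cells was H3f3b, H1fx, H1f0, H2afz and H3f3a, in which the ranges of H1f0 and H2afz and of H2afz and H3f3a overlapped. In dexamethasone cells it was H3f3b, H1f0 and H3f3a, without overlap. After them came H2afj, H1fx, H2afv, H2afz, Hist1h1c and H2afx, from 28.2 to 16.8 RPKM, in which each neighbour overlapped the next.

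**Figure D3:**
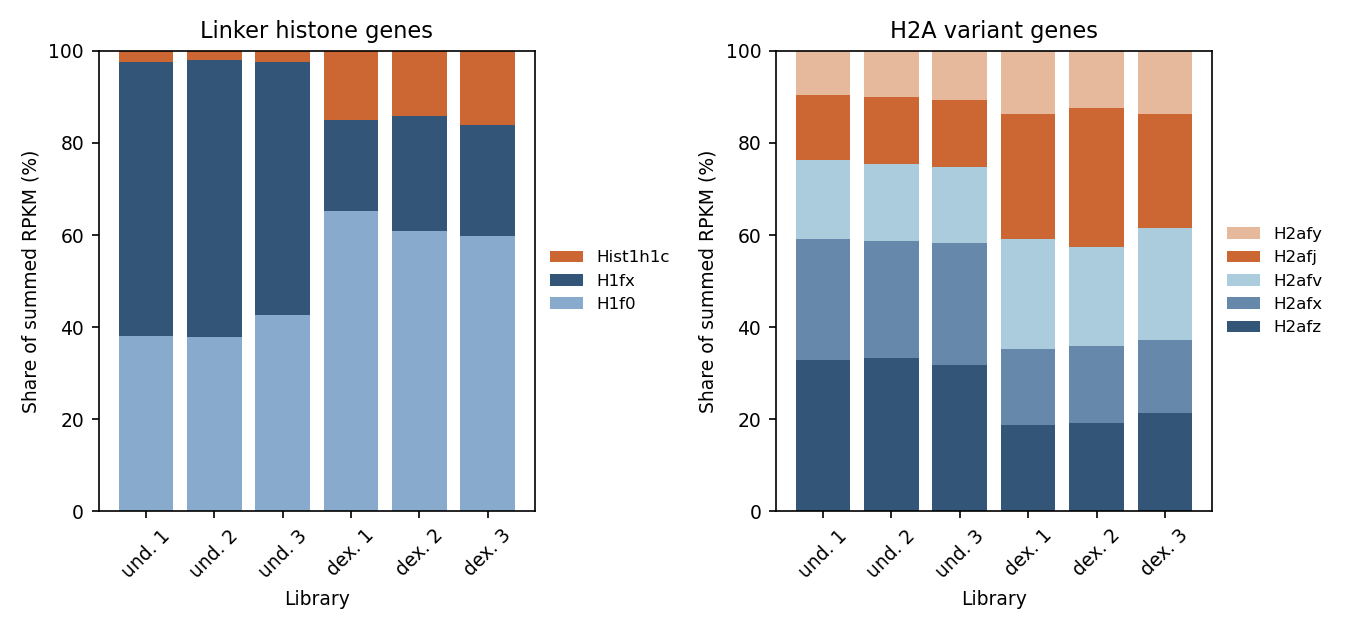
Share of RPKM within the linker genes and within the H2A variants in every library, in percent. H1f0 took 61.9% of the linker total in dexamethasone libraries against 39.5% in undifferentiated libraries, and H2afz fell from 32.7% to 19.8% of the H2A variant total.

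Hist1h1c, a replication-dependent gene for the linker histone H1.2, rose. It had 65, 57 and 53 reads in undifferentiated libraries and 254, 232 and 205 reads in dexamethasone libraries, or 9.19, 7.27 and 8.60 against 28.1, 25.3 and 30.5 CPM. Every dexamethasone library was above every undifferentiated library. The log2 fold change was 1.74 ± 0.13 (SE, edgeR adjusted p = 7.6e-13), a 3.34-fold higher level. Hist1h1c alone held 26.6 to 29.9% of all reads of replication-dependent genes in undifferentiated libraries and 49.4 to 54.5% in dexamethasone libraries. It lies at chr13:23738808-23740367 on the plus strand (ENSMUSG00000036181), and its annotated transcript runs 840 bases past the stem-loop.

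Hist1h4i, a gene for H4, fell, and it was the only replication-dependent gene called lower with the filter. It had 44, 41 and 26 reads in undifferentiated libraries and 6, 4 and 3 in dexamethasone libraries, or 6.22, 5.23 and 4.22 against 0.66, 0.44 and 0.45 CPM. The dexamethasone values are few reads each, and all were lower than every undifferentiated value. The log2 fold change was -3.29 ± 0.34 (SE, edgeR adjusted p = 9.22e-10). Hist1h4i passed the filter through the undifferentiated libraries, so here too the p-value is no independent support. Hist1h4i lies at chr13:22040636-22041362 on the minus strand (ENSMUSG00000060639), on the same chromosome as Hist1h1c.

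The promoters of these opposite movers are printed for comparison, again as 250 bases before the start (RefSeq, GRCm38.p6). CCAAT and TATAAA of either strand are in capitals. Only these exact letters are marked, so looser forms such as TATATA in Hist1h1c are not.
Hist1h1c: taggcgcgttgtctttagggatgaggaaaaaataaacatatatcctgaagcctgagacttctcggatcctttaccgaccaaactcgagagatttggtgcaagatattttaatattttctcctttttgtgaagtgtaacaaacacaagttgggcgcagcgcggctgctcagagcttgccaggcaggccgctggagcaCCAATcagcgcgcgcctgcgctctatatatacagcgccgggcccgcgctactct
Hist1h4i: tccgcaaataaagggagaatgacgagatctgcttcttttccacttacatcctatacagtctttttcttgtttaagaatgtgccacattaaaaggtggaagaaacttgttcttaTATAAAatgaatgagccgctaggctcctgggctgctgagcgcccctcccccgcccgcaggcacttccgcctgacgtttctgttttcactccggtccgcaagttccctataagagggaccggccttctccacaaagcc
The Hist1h1c stretch is chr13:23738557-23738806 on the plus strand and holds a CCAAT box. The Hist1h4i stretch is chr13:22041363-22041612 on the minus strand and holds TATAAA, at -137 from the start, but no CCAAT. It also holds a looser form, TATAAG, nearer the start, which is not marked.

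Hist3h2a and Hist3h2ba, genes for H2A and H2B beside each other on chromosome 11, were both called higher, at unequal certainty. Hist3h2a had 8, 10 and 7 reads in undifferentiated libraries and 59, 47 and 35 in dexamethasone libraries, with no overlap in CPM either. Its log2 fold change was 2.24 ± 0.28 (SE, edgeR adjusted p = 3.38e-08). Hist3h2a passed the filter through the dexamethasone libraries, so a difference between groups helped it to pass. This p-value is therefore no independent support. It lies at chr11:58954685-58956830 on the plus strand (ENSMUSG00000078851) and shares its start and strand with Trim17, a ubiquitin ligase gene that itself had 12 reads in undifferentiated and 176 in dexamethasone libraries. Reads within the 30.6% of 75-base stretches of Hist3h2a that lie in both genes cannot be assigned to either, so the value of Hist3h2a is uncertain. Hist3h2ba had 31, 35 and 20 reads against 44, 65 and 48, or 4.38, 4.46 and 3.25 against 4.87, 7.09 and 7.15 CPM. The lowest dexamethasone library stood just above the highest undifferentiated library, and the log2 fold change was 0.63 (edgeR adjusted p = 0.0105). This call was lost without undifferentiated replicate 3 (edgeR adjusted p = 0.0537) and without dexamethasone replicate 2 (edgeR adjusted p = 0.0562). Across the alternatives Hist3h2ba had adjusted p-values of 0.00162 to 0.0562.

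The remaining tested members encode H2B. Hist1h2bc had 26, 28 and 30 reads in undifferentiated and 100, 58 and 53 in dexamethasone libraries, or 3.67, 3.57 and 4.87 against 11.1, 6.32 and 7.89 CPM. All dexamethasone libraries were higher, with replicate 1 highest, and the log2 fold change was 1.08 ± 0.22 (SE, edgeR adjusted p = 8.61e-05). Hist1h2bc has 2 exons at chr13:23684199-23692908. Hist2h2be, known in mouse olfactory neurons, had 8, 7 and 13 reads against 19, 18 and 14, or 1.13, 0.89 and 2.11 against 2.10, 1.96 and 2.09 CPM. Its groups overlapped and it was not called (log2 fold change 0.61, edgeR adjusted p = 0.108). Leaving out undifferentiated replicate 3 made it a call (log2 fold change 1.01, edgeR adjusted p = 0.025), and leaving out undifferentiated replicate 2 lowered the value to 0.36 (edgeR adjusted p = 0.398). Its adjusted p-values across the alternatives were 0.025 to 0.398.

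The other 61 replication-dependent genes had too few reads to test. Of these 24 had no read in any library, 22 had 1 to 3 reads and 15 had more than 3, with 23 the most. Counts of 0 allow up to 3 reads per library, or 0.343 to 0.468 CPM before TMM scaling. This bound covers counting error only. Reads lay in the undifferentiated group alone for 17 genes, in the dexamethasone group alone for 5 and in both for 15. Their summed level was 4.84 ± 0.46 CPM in undifferentiated and 2.84 ± 0.64 CPM in dexamethasone libraries (SD, n = 3 each), 1.70-fold lower, with no test. No read fell on Hist1h1t, Hist1h2ad, Hist1h2ag, Hist1h2ah, Hist1h2ai, Hist1h2ao, Hist1h2ap, Hist1h2ba, Hist1h2bf, Hist1h2bq, Hist1h2br, Hist1h3e to Hist1h3i, Hist1h4m, Hist1h4n, Hist2h2aa1, Hist2h2aa2, Hist2h2ac, Hist2h2bb, Hist2h3b or Hist2h3c1. By class, the untested H2A genes summed to 1.20 and 0.26 CPM in undifferentiated and dexamethasone libraries, the H2B genes to 0.87 and 0.31 CPM, the H4 genes to 1.40 and 1.30 CPM and the H1 genes to 0.70 and 0.58 CPM. None of the 12 H3 genes was tested, and their reads summed to 6, 4 and 4 in undifferentiated and 4, 0 and 5 in dexamethasone libraries. Undifferentiated and dexamethasone reads were 15 and 2 for Hist1h2ae, 8 and 0 for Hist1h3c, 8 and 0 for Hist4h4, 6 and 0 for Hist1h4b and 3 and 20 for Hist2h4. With no filter on low counts 43 replication-dependent genes entered the test, and 5 were called lower and 5 higher, against 21.4% lower and 24.7% higher of all 23260 genes in that fit. The added calls were Hist4h4, Hist1h2ae, Hist1h3c and Hist1h4b, lower, and Hist2h4, higher.

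All replication-dependent genes together went from 29 ± 1.93 to 53.8 ± 4.61 CPM (SD, n = 3 each), 1.85-fold higher. Without Hist1h1c the sum was 20.7 ± 1.06 and 25.8 ± 2.80 CPM. As a share of all counted reads they were between 0.00262% and 0.00297% in undifferentiated and between 0.00508% and 0.00587% in dexamethasone libraries. Among reads of all members their share went from 1.32 to 1.44% to 4.47 to 5.33%. The 8 germ-line members gave no tested gene, and 6 of them had no read.

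Reads that fit several genes were not counted, and the replication-dependent genes differ in how much of their sequence is their own. Every stretch of 75 bases, the read length, was compared with the annotated transcripts of genes at other places. Sharing with a gene over the same bases is not in these shares. On the same strand it covered 30.6% of the stretches of Hist3h2a, a tested gene. It covered 49.8% in Hist2h2bb and 100% in Hist2h3c1, both untested. The 6 tested genes shared between 0 and 27.1% of their stretches, with a median of 10.3%, and 0 of them shared over 50%. The 61 untested genes shared between 0 and 100%, with a median of 42.4%, and 27 of them shared over 50% and held 23 reads in all. Low shares also occurred among genes with few reads: 20 untested genes shared under 25% and together held 97 reads. Hist2h4, with 23 reads, the most of any untested gene, shared 0%. Tested genes also had longer annotated transcripts, 614 to 2620 bases with a median of 1358, against a median of 528 bases in untested genes. A poly(A) signal, AATAAA or ATTAAA, stood in the last 50 bases of 5 of the 6 tested and 12 of the 61 untested genes. The annotated transcripts of 15 untested genes end at most 2 bases after the coding end, so a signal beyond it could not be found. Among genes with a stem-loop, a transcript of 100 bases or more past it was annotated for 4 of 4 tested and 18 of 39 untested genes. The kit's way of selecting mRNA is not given in the sources used here, and the part of read sharing, transcript ends or selection in these low values was not tested. The 9 tested variants shared between 0 and 28.8% of their stretches, the most in H2afz.

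**Figure D4:**
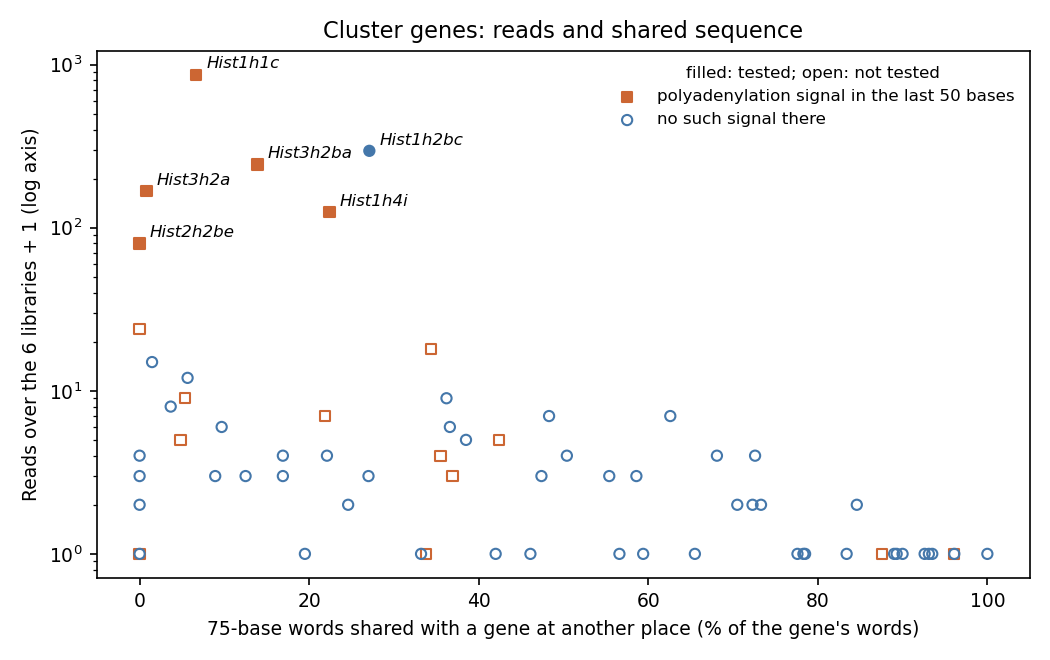
Reads of the replication-dependent genes, summed over 6 libraries plus 1, on a log axis. The other axis is the percent of 75-base stretches shared with annotated genes at other places. Filled points are tested genes and squares have a poly(A) signal in the last 50 bases. Tested genes all share 27.1% or less, and untested genes run from 0 to 100%.

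Promoters of 300 bases were searched for motifs on both strands, with RefSeq entries for 76 of the 82 members. CCAAT stood in 85.7% of 63 replication-dependent promoters, 71.4% of 14 variant promoters and 37.4% of 32851 promoters in all. TATAAA stood in 55.6%, 7.14% and 13.6%, and the octamer ATTTGCAT, bound by Oct1, in 22.2%, 7.14% and 1.74%. CCAAT was in 3 of 12 H4 promoters and in every promoter of the other replication-dependent classes. The octamer was in 7 of 18 H2A and 7 of 17 H2B promoters and in none for H1, H3 or H4. These are counts of letters, and overlap between motifs was not excluded. The full palindrome of the glucocorticoid response element stood in none of the members and in 0.00913% of all promoters, which says only that these letters are not in these windows.

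The genes that make, process, carry and place histones were described from a list of 53 matched symbols, of which 52 were tested. Of these 48 were called lower, 3 higher and 1 not called, against 38.6% lower and 40.3% higher of all genes tested. Their median log2 fold change was -0.96, against 0.02 for all genes. Among regulators of transcription 7 of 8 were lower. Mybl2, a cell cycle transcription factor, went from 99.2 ± 1.84 to 3.04 ± 0.25 CPM (log2 fold change -5.02, edgeR adjusted p = 1.46e-24), and Ccne2, a cyclin of S-phase entry, had a log2 fold change of -2.87 (edgeR adjusted p = 4.3e-20). Hinfp, which activates H4 genes, was higher, from 31.3 ± 0.81 to 38.8 ± 0.60 CPM (edgeR adjusted p = 0.00104). Sympk, the scaffold of the cleavage complex, is not in the list's tally, since the list misspelled its name, and had a log2 fold change of -0.32 (edgeR adjusted p = 1.97e-05). Among genes of 3′ processing 6 of 7 tested were lower: Slbp, which binds the stem-loops shown above, went from 101.5 ± 2.2 to 44.7 ± 0.16 CPM (log2 fold change -1.18, edgeR adjusted p = 1.18e-15). Srrt and Cstf2, which act in the cutting of histone mRNA ends, had log2 fold changes of -1.98 and -1.20 (edgeR adjusted p = 4.38e-22 and 3.55e-16). Lsm10, part of the U7 particle that cuts histone mRNA, was higher (log2 fold change 0.77, edgeR adjusted p = 3.81e-05). Of the decay genes 4 of 5 were lower. Upf1, a helicase of mRNA decay, had a log2 fold change of -0.97 (edgeR adjusted p = 4.46e-14). Eri1, a nuclease of histone mRNA ends, was at -1.15 on that scale (edgeR adjusted p = 3.7e-16). Tut7, a uridylating enzyme, was higher at 0.43 (edgeR adjusted p = 1.19e-05).

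All 17 chaperones of new histones were called lower, against 38.6% of all genes tested, with a median log2 fold change of -1.19. Nasp, which holds H3 and H4, went from 230.2 ± 12.2 to 34.7 ± 2.17 CPM (log2 fold change -2.73, edgeR adjusted p = 1.59e-23). Asf1b, a chaperone of dividing cells, had a log2 fold change of -3.53 (edgeR adjusted p = 7.79e-23). Mcm2 is a helicase subunit that binds histones and is also counted among the cycling markers, and its log2 fold change was -2.69 (edgeR adjusted p = 6.47e-25). Among genes of variant deposition 14 of 15 were lower, again against 38.6%, and Srcap, which places H2A.Z, was not called (log2 fold change -0.42, edgeR adjusted p = 0.167). Cenpa, the centromere H3 variant, went from 102 ± 5.85 to 4.6 ± 0.50 CPM (log2 fold change -4.45, edgeR adjusted p = 7.39e-24). Anp32e, which removes H2A.Z, went from 477 ± 27.0 to 137 ± 15.7 CPM (log2 fold change -1.80, edgeR adjusted p = 1.14e-19). The fall of these genes moved with the cycling markers, and the part of those markers was not tested.

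**Figure D5:**
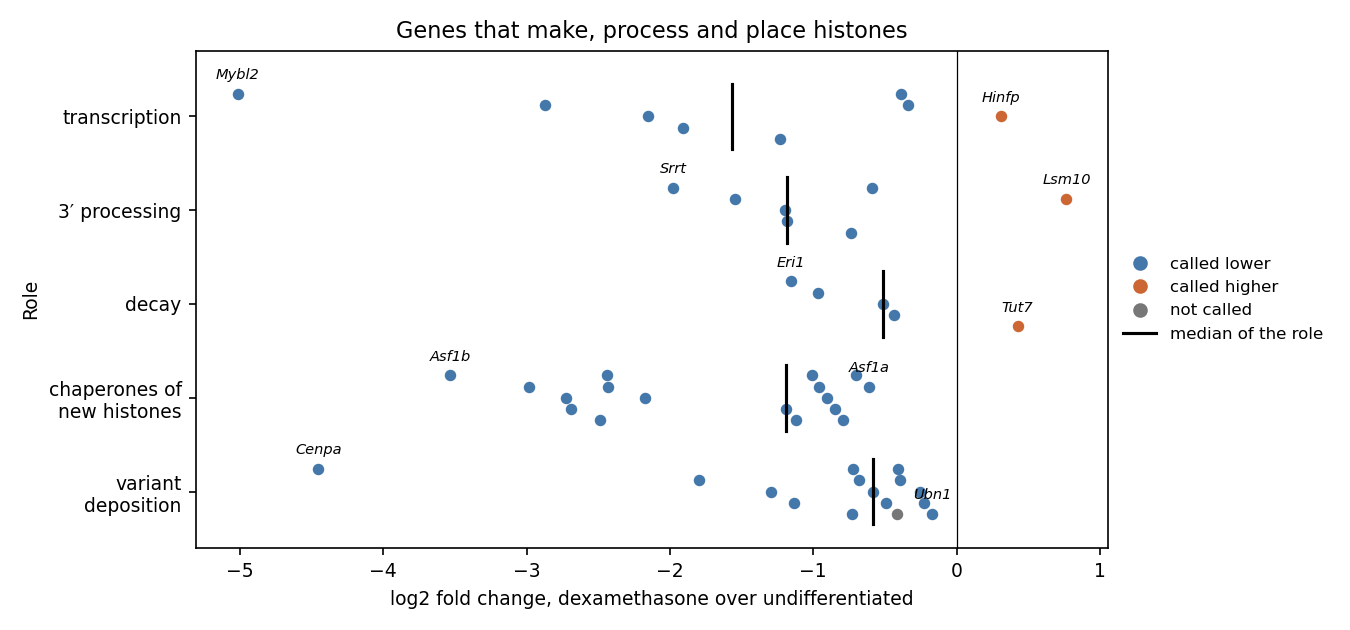
Log2 fold changes of the histone supply genes by role, dexamethasone over undifferentiated, with the median of each role as a line. All 17 chaperones lie below 0 and Cenpa and Mybl2 fell farthest, at -4.45 and -5.02.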

How the data were processed

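Read counts per gene were given for 6 mRNA libraries of the CAD line. Per the labels' protocols, each library used 500 ng of RNA, a kit for mRNA selection, 12 amplification cycles and reads of 75 bases. The authors ran featureCounts 1.6.4 on Ensembl release 96 exons, per the file headers, with strand setting 1 and without the option for reads that align to several places. The submitters' processing notes name HISAT2 2.2.0, Subread 1.6.4, Trim Galore 0.6.4, FastQC 0.11.9, DESeq2 and GRCm38.p6, without roles. The deposited counts are raw whole numbers.

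All 55536 genes matched GENCODE M21. Genes with low counts were removed with filterByExpr (minimum count 10, minimum total 15), which left 12664 genes with 99.8% of reads. Counts were scaled with TMM and tested with edgeR 4.0.16 (R 4.3.3), with the group as the only term and Benjamini-Hochberg adjustment. The test script was first checked on simulated counts, which entered no reported value. RPKM used the union of a gene's exons. Stretches of 75 bases and stem-loops were searched in annotated transcripts, not in a genome, so copies outside annotated transcripts were not counted. Promoters are those of RefSeq on GRCm38.p6.

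Members and lists were chosen with earlier results of these data known. The named genes are the tested members and, per role and direction of the supply list, up to 2 called genes with the smallest adjusted p. Hist2h2be, Slbp, Asf1b, Srcap and Sympk were added after their values were seen. The list's name Symplk, a misspelling of Sympk, had no match, nor had Zcchc6, an older name of Tut7, which the list holds, and Zfp473 did not pass the filter. Within groups, pairs of libraries exceeded counting noise (chi-square over its degrees of freedom 1.69 to 3.34), so none was a copy. Alternatives were RLE, upper quartile and library total scaling, no filter, 1 CPM in 3 libraries, DESeq2 1.42.0, limma voom (limma 3.58.1), robust dispersion, the replicate block, an adjusted p under 0.01 and each library left out.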

Additional observations from a re-analysis of the deposited data

How the results depend on the processing

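Of 434 comparisons of a count, sum, list median or single gene with an alternative, 426 were graded the same, and 1 reversed. A count could move and still be graded the same, as with 4207 genes called lower with library totals alone against 4891. The setting of an adjusted p under 0.01 reuses the main fit, so fold changes and medians could not move under it. With no filter on low counts, the median log2 fold change of replication-dependent genes was -0.96 over 43 genes in place of 0.86 over 6, and 5 of them were called lower in place of 1. The log2 ratio of summed variant CPM was -0.98 with TMM, -0.88 with upper quartile factors and -0.86 with library totals alone; these 2 scalings moved the median of all genes to 0.12 and 0.14, and all 9 tested variants were still called lower. Without each replicate in turn, that ratio ranged from -1.01 to -0.96, the log2 ratio of replication-dependent sums from 0.85 to 0.97 and the median of the 6 tested genes from 0.81 to 1.11. Calls of replication-dependent genes higher ranged from 3 to 4, and of all genes from 5022 to 5103 higher and 4674 to 4845 lower. Hist3h2ba was not called at an adjusted p under 0.01. Same-numbered replicates did not deviate together (correlations -0.095, 0.036 and -0.071), and not every sample correlated best with its own number. Deviations from a mean of 3 libraries are tied to each other, so this check cannot show whether same-numbered samples were handled together. With the replicate block 5017 genes were higher and 4803 lower, and the 9 variants stayed called. Few reads limit the replication-dependent genes: 61 of 67 could not be tested.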

Other observations

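Some histone-named loci outside the protein-coding set held reads. Hist1h2al, annotated as a processed pseudogene at chr13:51202727-51203065, had 1, 2 and 0 reads in undifferentiated and 17, 26 and 15 in dexamethasone libraries. All dexamethasone libraries were higher, and with 3 reads in the whole undifferentiated group it passed the filter only through the dexamethasone libraries, so no fold or test is given. H3f3a-ps1 on chromosome X had 82, 82 and 70 against 67, 74 and 51 reads (log2 fold change -0.53, edgeR adjusted p = 0.00264). Both loci were chosen after their values were seen.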
